A study of Rattus norvegicus with 47 samples.

Results

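The BCL2 family decides whether a cell lives or dies through its mitochondria, and 10 of its genes were followed in rat blood over the first day post MCA occlusion (thread occlusion of the middle cerebral artery, a model of stroke). The genes were Bcl2, Bcl2l1, Mcl1, Bcl2a1, Bcl2l11, Bax, Bak1, Bid, Pmaip1 and Bbc3, each found by its symbol in the annotation of the deposited table, with the probe set of highest mean signal taken for each symbol. The table listed 27596 probe sets, of which 21406 carried a gene symbol. A probe set was found for 9 of the 10 genes, exactly 1 each, and none for Bbc3, which encodes the death protein PUMA.

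The proteins of this family act against each other at the outer mitochondrial membrane. BCL2, BCL-XL (from Bcl2l1), MCL1 and A1 (from Bcl2a1) keep the membrane closed, BAX and BAK1 open it, and the BH3-only proteins BIM (from Bcl2l11), BID, NOXA (from Pmaip1) and PUMA tip the balance towards opening, after which cytochrome c leaves and caspases are switched on. In blood, lymphocytes are known to lean on BCL2, whereas neutrophils, which live for a short time, lean on MCL1 and A1, and red cell precursors and platelets on BCL-XL.

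Whole blood was drawn from 8 male spontaneously hypertensive rats (SHR, an inbred strain with high blood pressure) aged 16 weeks. The 0 h sample came from the tail vein before anesthesia, the 1, 2, 3 and 6 h samples from the tail vein after the thread was placed, and the 24 h sample from the heart at the end of the experiment. The thread was withdrawn under renewed anesthesia between the 1 h and 2 h samples, and no group had sham surgery, so the effects of ischemia, reperfusion, surgery, anesthesia, repeated bleeding and hour of day cannot be told apart here, nor can those of time and of the site of bleeding at 24 h. RNA was read on 47 Affymetrix RatGene arrays, 8 at each time point and 7 at 6 h, where rat 3 gave no sample. Values below are the authors' means and SDs over the arrays of a time point, on the log2 scale after RMA normalization, and a change is the mean at a later time minus the mean at 0 h. Changes were tested with limma's moderated test over all probe sets with Benjamini-Hochberg adjustment, and "passed" means an adjusted p under 0.05. Probe sets differ in brightness, so the level of a gene was compared with its own level at other times. For some dim genes the mean is also set beside the 0 h median of all probe sets, 6.61. All 5 comparisons with 0 h share the same 0 h samples.

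Across the table the median change from 0 h lay between 0.04 and 0.07 at every later time, and the median SD within a time point between 0.14 and 0.16. Blood was recognisable by its markers, with Hbb (hemoglobin) and Alas2 (heme synthesis in red cells) at 13.5 and 13.4 at 0 h. Neutrophil markers rose (7 of 8 at 1 h and 8 of 8 later) and B cell and T cell markers fell, as given beside the survival genes below. By comparison, 21.7% of all probe sets rose at 1 h and 17.4% to 27.3% at the times after it. Between 13.9% and 19.3% of all probe sets fell at every time after 0 h. Of all calls against 0 h, 53.8% to 58.7% were increases, and these shares fell to 37.3% to 47.2% when the means of each time point were centred on their median and to 36.1% to 38.6% when the median change was subtracted.

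Of the 9 measured genes, 7 (77.8%) passed the F-test over the 6 time points, against 55.5% of all probe sets. Bcl2 and Bcl2a1 fell at all 5 later times, Bcl2l1 and Pmaip1 rose at all 5, Bid rose from 2 to 6 h, and Mcl1 and Bak1 moved by small amounts, whereas Bax and Bcl2l11 did not pass. At 1 h, 2 genes had risen and 2 had fallen, where 21.7% of all probe sets rose and 15.4% fell. At 2 h, 4 had risen and 2 had fallen, against 21.7% and 18.6% of all probe sets, and at 3 h the counts were again 4 and 2, against 27.3% and 19.2%. At 6 h, 3 had risen and 2 had fallen, against 22.5% and 19.3%, and at 24 h 2 had risen and 3 had fallen, against 17.4% and 13.9%. With so many probe sets called at each time, and only 9 genes, these counts say little about the family as a whole. Each rat gave several samples, so the largest standard error that any correlation between samples of a rat allows was also tried. It used the moderated spread shared by the 6 time points. The calls of Bcl2 at 2, 3 and 6 h and of Bcl2l1 and Bcl2a1 at all 5 times were kept. Those of Pmaip1 at 1, 2, 3 and 6 h were kept too, whereas the other calls against 0 h were lost. With the SDs of the compared times the error can be larger still. For Pmaip1 these were 0.26 at 0 h, 0.22 at 2 h and 0.20 at 6 h, against a moderated spread of 0.18. Whether the kept calls hold under that error was not tested. The median change of the 9 genes lay between 0.01 and 0.16 over the 5 times, with changes of single genes from -1.55 to 0.88, and at 6 h and 24 h its sign turned from 0.01 to -0.02 and -0.03 when the means were centred.

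**Figure D1:**
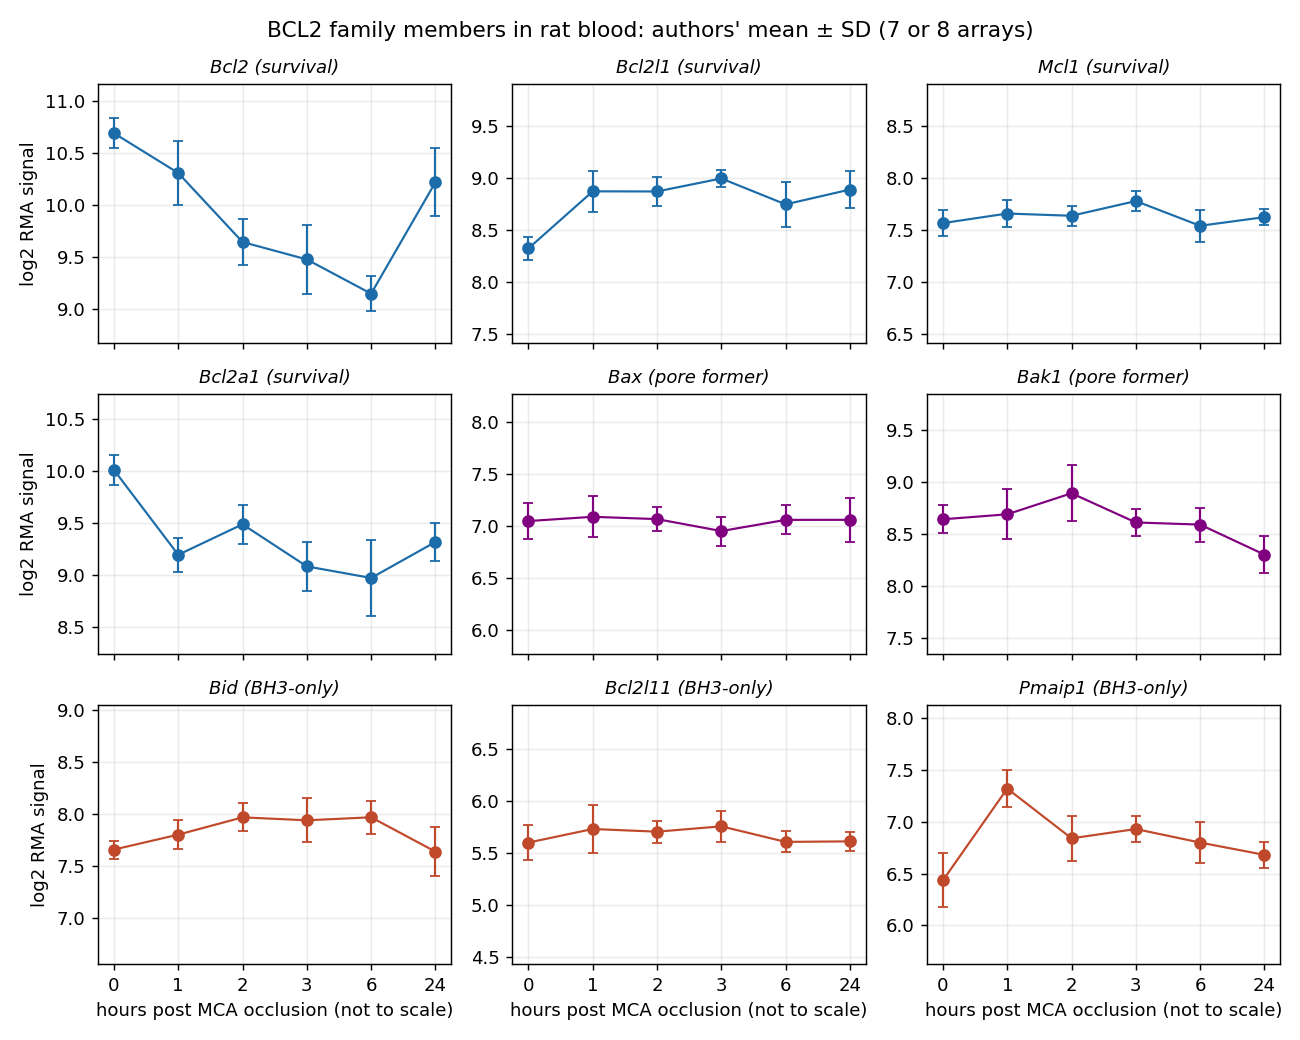
Authors' mean log2 signal (points) with the authors' SD (bars, 7 or 8 arrays) of the 9 measured BCL2 family genes, against hours post MCA occlusion on an evenly spaced axis. Bcl2 fell from 10.69 at 0 h to 9.15 at 6 h and Bcl2a1 from 10.01 to 8.97, Bcl2l1 stayed above its 0 h level of 8.32 at every later time, and Pmaip1 was highest at 1 h, at 7.32.

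The sequence before the start of transcription is shown for the pair of genes that fell at every time, Bcl2 and Bcl2a1, and for Pmaip1, the gene with the largest rise. These are the 250 bases before the RefSeq start on the GRCr8 assembly, read on the strand of the gene, at chr13:23366901-23367150 (minus strand) for Bcl2, chr8:98596556-98596805 (plus strand) for Bcl2a1 and chr18:62255720-62255969 (plus strand) for Pmaip1. Capitals mark GAGGAAG, a core bound by ETS factors, and TGACG, the CREB core, which appears as CGTCA where it lies on the other strand.
Bcl2: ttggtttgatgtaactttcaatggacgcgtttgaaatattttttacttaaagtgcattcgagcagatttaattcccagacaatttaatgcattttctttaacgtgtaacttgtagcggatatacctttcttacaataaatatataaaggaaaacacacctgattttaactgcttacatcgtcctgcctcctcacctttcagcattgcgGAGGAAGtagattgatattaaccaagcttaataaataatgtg
Bcl2a1: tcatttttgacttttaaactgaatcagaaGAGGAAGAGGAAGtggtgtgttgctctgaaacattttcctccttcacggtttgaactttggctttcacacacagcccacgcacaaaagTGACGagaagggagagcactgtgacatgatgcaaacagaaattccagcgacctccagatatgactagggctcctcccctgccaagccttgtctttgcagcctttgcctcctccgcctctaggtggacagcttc
Pmaip1: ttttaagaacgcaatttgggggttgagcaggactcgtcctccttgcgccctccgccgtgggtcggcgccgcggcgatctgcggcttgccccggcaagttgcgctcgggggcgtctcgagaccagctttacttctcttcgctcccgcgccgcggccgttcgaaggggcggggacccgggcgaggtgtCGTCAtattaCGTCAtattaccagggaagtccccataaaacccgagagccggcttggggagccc
The windows of the pair that fell both hold GAGGAAG, once in Bcl2 at 42 bases before the start and in Bcl2a1 as 2 copies sharing a base, at 221 and 215 bases before it. The Pmaip1 window has no GAGGAAG and holds 2 copies of TGACG, at 64 and 54 bases before the start, and Bcl2a1 holds 1 copy at 133. The base composition also differs, with 33.6% G and C in Bcl2, 48.8% in Bcl2a1 and 64.8% in Pmaip1, where the median over 33469 RefSeq windows of this length was 51.2%. Pmaip1 has 30 CpG pairs in its window, Bcl2 7 and Bcl2a1 5, the last being also the median of all windows.

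Windows were listed for 8 of the 10 genes, with 4 starts for Bcl2l1, and Bax and Bbc3 had no entry. Searched on both strands, GAGGAAG was in 10.2% of all windows and also in those of Mcl1 and Bak1 and in 1 of the 4 of Bcl2l1, so it was present in genes that fell, rose or stayed near their 0 h level. TGACG was in 18.2% of all windows and also in that of Mcl1, at 55 bases. The TATA box TATAAA (12.9% of all windows) was found in Bcl2 alone among the 8 genes, and the GC box GGGCGG (30.5%) in Mcl1, Bcl2l11, Bak1, Bid and Pmaip1. The CCAAT box (34.0%) was found in Bcl2l11 and in 2 of the 4 windows of Bcl2l1. Both capitalised motifs were chosen after the Bcl2a1 sequence had been read, and a match describes the letters of the window only.

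Bcl2 encodes the survival protein that gives the family its name, and its probe set 10766953 spans the gene at chr13:31758232-31919850 of rn5, on the minus strand. Its signal was 10.69 ± 0.14 before occlusion and then 10.31 ± 0.31, 9.64 ± 0.22, 9.48 ± 0.33, 9.15 ± 0.17 and 10.22 ± 0.33 at 1, 2, 3, 6 and 24 h (means ± SD, n = 8, with n = 7 at 6 h). It was highest before the occlusion, lowest at 6 h, and back near its 1 h level by 24 h. The fall was 0.38 on the log2 scale at 1 h (SE 0.13, adjusted p = 0.0146), which grew to a change of -1.05 at 2 h (adjusted p = 2.23e-09) and -1.22 at 3 h (adjusted p = 4.51e-11). At 6 h the change of -1.55 (95% interval -1.81 to -1.28, adjusted p = 7.96e-14) made the signal 2.92-fold lower than at 0 h. In the order of levels, 1 h and 24 h differed by 0.09, less than the SD, and so did 2 h from 3 h, by 0.17, and 3 h from 6 h, by 0.33, which is at the SD. The steps that passed were the fall from 1 to 2 h, by 0.66 (adjusted p = 0.000258), and the rise from 6 to 24 h, by 1.07 (adjusted p = 8.85e-09). At 24 h a change of -0.47 (adjusted p = 0.00365) was left, 30.6% of the largest. In whole blood, fewer cells that carry a transcript and less of it per cell cannot be told apart.

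Step counts over the 9 genes were small. From 1 to 2 h 2 genes passed, where 8.78% of all probe sets did, from 2 to 3 h 1 gene (3.53% of all), from 3 to 6 h 1 gene (4.78%) and from 6 to 24 h 4 genes (18.9%). The larger standard error described above, which uses the shared spread, was tried here too. It kept the 1 to 2 h steps of Bcl2 and Pmaip1 and the 6 to 24 h step of Bcl2. The other step calls given for Mcl1, Bcl2a1, Bak1 and Bid were lost (adjusted p from 0.0952 to 0.471).

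Bcl2l1, whose main product BCL-XL is a survival protein of red cell precursors, platelets and many other cells, ran the other way. Its probe set 10850826 lies at chr3:154650836-154716802 (rn5, minus strand), and the signal was 8.32 ± 0.11 before occlusion and then 8.87 ± 0.20, 8.87 ± 0.14, 8.997 ± 0.08, 8.75 ± 0.22 and 8.89 ± 0.18 at 1, 2, 3, 6 and 24 h (same n). The 5 later levels lay within 0.25 of each other and each neighbour in their order differed by less than the SD, so the rise was in place by 1 h and lasted to 24 h. The changes were 0.55, 0.55, 0.67, 0.42 and 0.57 at these times (SE 0.08, adjusted p = 4.21e-07, 1.68e-07, 1.38e-09, 3.85e-05 and 4.17e-07). No step between later times passed, the nearest being a difference of -0.25 from 3 to 6 h (adjusted p = 0.0667). At 24 h 84.1% of the largest change was left, against 30.6% for Bcl2. The array reads the whole gene, and the long form BCL-XL was not separated from the short, death-promoting form BCL-XS.

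Markers of the cells known for BCL-XL had courses of their own. The 7 erythroid markers had median changes of 0.12, 0.03, -0.01, -0.13 and 0.17 at 1, 2, 3, 6 and 24 h, with 2, 0, 1, 0 and 3 of 7 higher and 0, 0, 0, 3 and 0 lower, where 15.4%, 18.6%, 19.2%, 19.3% and 13.9% of all probe sets fell. With the median change subtracted, 0 were higher and 2 lower at 3 h and 4 lower at 6 h. Their largest change was that of Tfrc, the transferrin receptor of red cell precursors and other dividing cells, which was at 0.23, -0.15, -0.01, -0.56 and 1.21, above the 0.57 of Bcl2l1 at 24 h (adjusted p = 7.11e-09). Slc4a1, the red cell anion exchanger, changed by 0.34, 0.17, 0.13, -0.23 and 0.58, and thus by about as much as Bcl2l1 at 24 h. The 6 platelet markers had median changes of 0.27, 0.20, 0.12, 0.06 and 0.28, with 3, 2, 1, 0 and 4 of 6 higher, where 21.7%, 21.7%, 27.3%, 22.5% and 17.4% of all probe sets rose. These platelet counts depended on the scaling, being 1, 0, 0, 0 and 3 with centred means or with the median change subtracted and 2, 0, 1, 0 and 3 with quantile normalized means. At 6 h Bcl2l1 was above its 0 h level while no platelet marker and no erythroid marker passed as higher. Whether these cells contribute to the rise of Bcl2l1 was not tested.

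Mcl1 encodes a short-lived survival protein that neutrophils need, and its signal hardly moved. It was 7.56 ± 0.12 before occlusion and then 7.66 ± 0.13, 7.63 ± 0.10, 7.78 ± 0.10, 7.54 ± 0.16 and 7.62 ± 0.08 at 1, 2, 3, 6 and 24 h (same n). Every neighbour in the order of these levels differed by less than the SD. The change that passed was 0.21 at 3 h (SE 0.06, adjusted p = 0.00339), followed by a step of -0.24 from 3 to 6 h (adjusted p = 0.0151), and the other changes were 0.09, 0.07, -0.03 and 0.06 at 1, 2, 6 and 24 h (adjusted p from 0.226 to 0.761). The 3 h call was lost when the median change of all probe sets was subtracted, which left 0.14, and the call of the step with the spread of the compared times alone. The deposited annotation puts probe set 10850619 at chr3:151920437-151946401 (rn5, plus strand), whereas RefSeq has Mcl1 on chromosome 2 of GRCr8, and whether these probes read Mcl1 itself was not tested.

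Bcl2a1 encodes A1, an inducible survival protein best known from neutrophils and also made by other leukocytes. Its probe set 10912112 lies at chr8:96059039-96067299 (rn5, plus strand). The signal was 10.01 ± 0.14 before occlusion and then 9.19 ± 0.16, 9.49 ± 0.19, 9.08 ± 0.24, 8.97 ± 0.37 and 9.32 ± 0.18 at 1, 2, 3, 6 and 24 h (same n). The gene thus stood below its 0 h level at every later time, with the 0 h mean above the next highest, that of 2 h, by 0.52. The changes were -0.82, -0.52, -0.93, -1.04 and -0.69 at these times (SE 0.11, adjusted p = 5.34e-08, 9.21e-05, 8.54e-10, 9.21e-11 and 2.68e-06). Unlike Bcl2, most of its fall was in place at 1 h, and 66.7% of the largest change was left at 24 h. The step from 2 to 3 h, -0.41, passed (adjusted p = 0.0202), as did the rise of 0.35 from 6 to 24 h (adjusted p = 0.0206), while the difference of 0.29 from 1 to 2 h did not (adjusted p = 0.0789). With the spread of the compared times alone, the 6 to 24 h call was lost and the 1 to 2 h call was gained.

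Bcl2, known for lymphocyte survival, can be set against Mcl1 and Bcl2a1, known for granulocyte survival, by the difference of their changes. Which cells gave these signals here was not tested. Both genes of a pair are read on the same arrays, so the intervals below allow for any correlation between the genes. They use the largest standard error this allows with each gene's spread shared by the 6 time points. The samples of a rat are taken as independent, and no p is given. The Mcl1 values are those of the probe set whose listed position is not that of Mcl1, so a pair with Mcl1 sets Bcl2 against a probe set that hardly moved and may not read Mcl1. The change of Mcl1 was above that of Bcl2 by 0.48, 1.12, 1.43, 1.52 and 0.53 at 1, 2, 3, 6 and 24 h, with 95% intervals of 0.10 to 0.85, 0.75 to 1.49, 1.05 to 1.80, 1.13 to 1.91 and 0.16 to 0.90. These 5 intervals lie above 0, and the difference was largest at 6 h. For Bcl2a1 the difference from Bcl2 was -0.43, 0.52, 0.29, 0.50 and -0.22, with intervals of -0.90 to 0.03, 0.06 to 0.99, -0.18 to 0.76, 0.02 to 0.99 and -0.69 to 0.25. The interval included 0 at 1, 3 and 24 h, and with the genes taken as independent it left 0 out at 1 h as well (-0.77 to -0.10). Any correlation between samples of a rat was then allowed for too, with the same shared spreads. The interval of Mcl1 minus Bcl2 included 0 at 1 h (-0.05 to 1.00) and was 0.0022 to 1.06 at 24 h. It stayed above 0 at 2, 3 and 6 h, and the interval of Bcl2a1 minus Bcl2 included 0 at all 5 times.

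**Figure D2:**
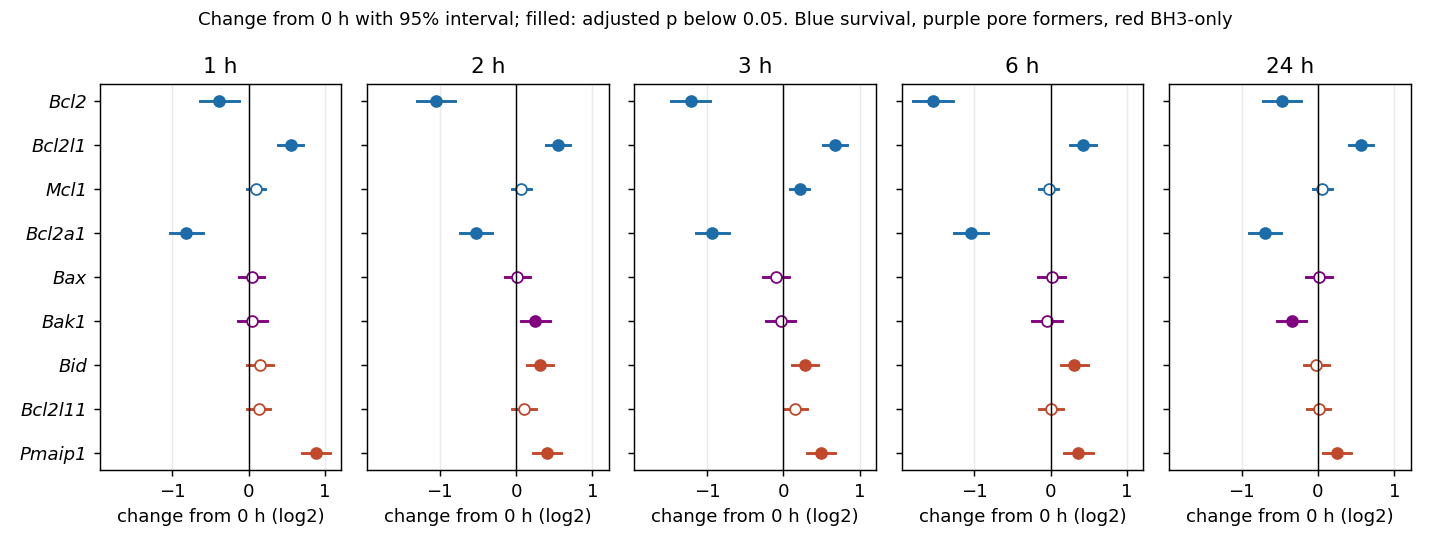
Change from 0 h (log2, points) with its 95% interval (bars, from the moderated spread) for each of the 9 measured genes at 1, 2, 3, 6 and 24 h, filled where the adjusted p was under 0.05. Bcl2 reached -1.55 and Bcl2a1 -1.04 at 6 h, Bcl2l1 kept between 0.42 and 0.67, Pmaip1 fell back from 0.88, and the points of Bax and Bcl2l11 lay between -0.10 and 0.16.

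Markers of lymphocytes and neutrophils moved over the same hours. All 7 T cell markers fell at every time, with medians of -0.55, -1.02, -1.02, -1.14 and -0.76 at 1, 2, 3, 6 and 24 h. All 6 B cell markers fell as well, with medians of -1.50, -2.04, -2.13, -1.76 and -0.53. Of all probe sets, 15.4%, 18.6%, 19.2%, 19.3% and 13.9% fell at these times. With quantile normalized means 6 of 7 T cell markers passed at 1 h and 4 of 6 B cell markers at 24 h, with both medians still below 0. Set beside these, Bcl2 (-0.38, -1.05, -1.22, -1.55 and -0.47) was inside the range of the T cell markers at 1 h and 2 h and outside it at 3, 6 and 24 h, where that range was -1.15 to -0.86, -1.45 to -0.93 and -0.98 to -0.54. Bcl2 was inside the range of the B cell markers at 6 h (-1.93 to -1.32) and 24 h (-0.75 to -0.37), and had fallen less than every B cell marker at 1, 2 and 3 h. Neutrophil markers rose, 7 of 8 at 1 h and 8 of 8 later, with medians of 0.81, 1.32, 1.29, 1.55 and 0.74. Of all probe sets, 21.7%, 21.7%, 27.3%, 22.5% and 17.4% rose at these times. Of the genes known for granulocyte survival, Bcl2a1 fell at each time, while the neutrophil markers rose. The probe set listed for Mcl1, whose target is in doubt as described above, moved by up to 0.21 from its 0 h level. No value of Bcl2a1 or Mcl1 came within the neutrophil range, whose lower ends were 0.23, 0.94, 0.72, 0.92 and 0.30.

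Monocyte and NK cell markers had mixed courses. The 6 monocyte markers were split, with 1, 3, 3, 3 and 0 higher and 4, 3, 3, 3 and 3 lower, where 17.4% to 27.3% of all probe sets were higher and 13.9% to 19.3% lower at the 5 times. Cd14, the lipopolysaccharide coreceptor, changed by 1.84 at 3 h and Cx3cr1, the fractalkine receptor, by -1.45. The 5 NK cell markers had medians of -0.16, -0.58, -0.79, -0.81 and -0.82, with 1, 3, 3, 4 and 4 lower and 1, 1, 0, 1 and 0 higher, against the same shares. The lowest 0 h mean among the markers of the 7 lists was 7.43, that of Cd14. The part that these shifts have in the changes of Bcl2, Bcl2a1 or any other gene described here was not tested.

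**Figure D3:**
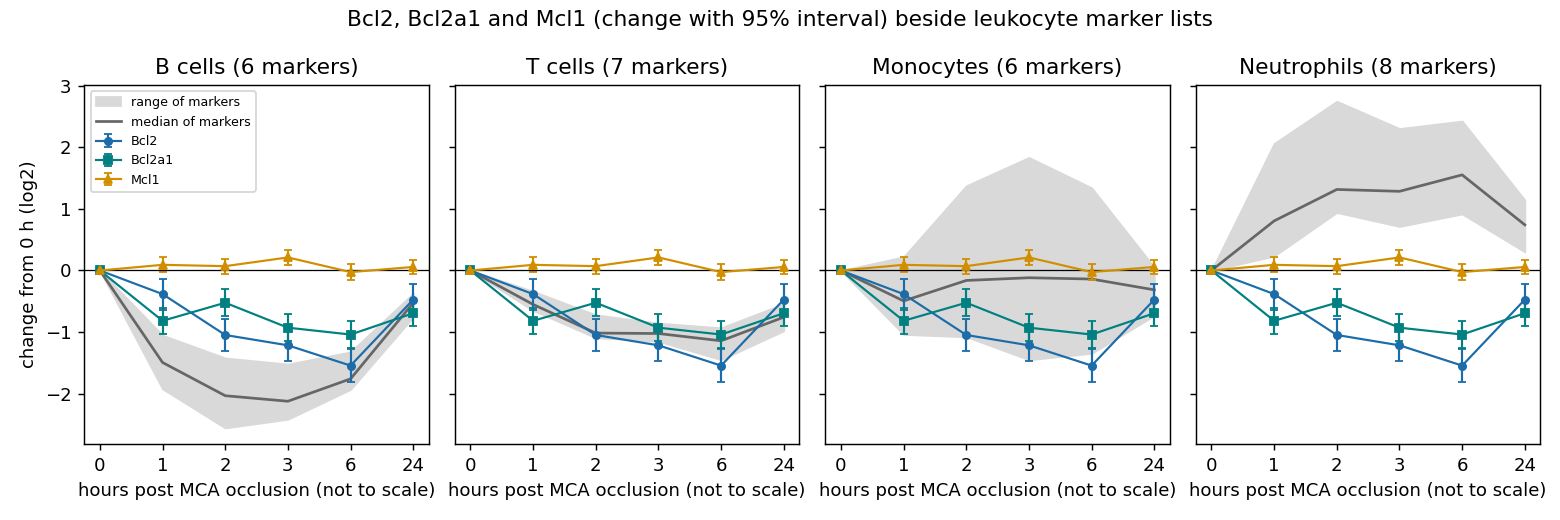
Change from 0 h (log2) of Bcl2, Bcl2a1 and Mcl1 (points, with 95% intervals) beside the median (grey line) and the range (grey band) of markers of B cells, T cells, monocytes and neutrophils. At 6 h the marker medians were -1.76, -1.14, -0.14 and 1.55, with Bcl2 at -1.55, Bcl2a1 at -1.04 and Mcl1 at -0.03.

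The membrane-opening pair moved little. Bax, at chr1:102530747-102536072 (rn5, minus strand), had means from 6.95 to 7.09 and SDs from 0.11 to 0.21, with changes of 0.04, 0.02, -0.10, 0.01 and 0.01 at 1, 2, 3, 6 and 24 h (adjusted p from 0.343 to 0.930, F-test adjusted p = 0.684). At 24 h the 95% interval ran from -0.15 to 0.18. Bak1, at chr20:7675062-7683674 (rn5, minus strand), had 8.64 ± 0.14 before occlusion and then 8.69 ± 0.24, 8.89 ± 0.27, 8.61 ± 0.13, 8.59 ± 0.16 and 8.30 ± 0.18 at 1, 2, 3, 6 and 24 h (same n). It was highest at 2 h and lowest at 24 h, and in the order of levels the 24 h mean alone differed from its neighbour by more than the SD. The rise of 0.25 at 2 h (SE 0.09, adjusted p = 0.0302) was lost when the means were centred, and the change of -0.34 at 24 h (adjusted p = 0.00519) when the means were quantile normalized, which left -0.24. The step of -0.29 from 6 to 24 h passed (adjusted p = 0.0298).

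Among the 3 measured BH3-only members, Pmaip1, Bid and Bcl2l11, Pmaip1 had the largest change and was the one called at 1 h. Its product NOXA binds MCL1 and A1 and frees the membrane openers, and its probe set 10802375 lies at chr18:61365056-61369043 (rn5, plus strand). The signal was 6.43 ± 0.26 before occlusion and then 7.32 ± 0.18, 6.84 ± 0.22, 6.93 ± 0.12, 6.80 ± 0.20 and 6.68 ± 0.12 at 1, 2, 3, 6 and 24 h (same n). It peaked at 1 h, before the thread was withdrawn, above the next highest level, at 3 h, by 0.39. The rise was 0.88 at 1 h (SE 0.09, adjusted p = 1.94e-10), a 1.84-fold increase, and it dropped by 0.48 from 1 to 2 h (adjusted p = 0.000320). Rises of 0.40, 0.49 and 0.36 at 2, 3 and 6 h followed (adjusted p = 0.000387, 2.23e-05 and 0.00183). At 24 h 0.25 was left (adjusted p = 0.0377), 27.7% of the largest change, a call that was lost under each of 3 other scalings, which gave 0.19 to 0.20.

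Bid, whose product is cut by caspase 8 and links death receptors to mitochondria, was higher at 2, 3 and 6 h. Its probe set lies at chr4:220532879-220554360 (rn5, minus strand), with 7.66 ± 0.09 before occlusion and then 7.80 ± 0.14, 7.97 ± 0.13, 7.94 ± 0.21, 7.97 ± 0.16 and 7.64 ± 0.24 at 1, 2, 3, 6 and 24 h (same n). The 2, 3 and 6 h levels lay together and the 24 h and 0 h levels differed by 0.02. The changes of 0.31, 0.28 and 0.31 at 2, 3 and 6 h passed (SE 0.08, 0.08 and 0.09, adjusted p = 0.00250, 0.00527 and 0.00326), and the step down from 6 to 24 h was -0.33 (adjusted p = 0.00390). At 1 h the change of 0.14, just above the SD, did not pass (adjusted p = 0.173), nor did the step of 0.17 from 1 to 2 h (adjusted p = 0.244), so the start of the rise was not placed before or after 1 h. At 24 h the change was -0.02 (adjusted p = 0.880).

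Bcl2l11, which encodes BIM, a death inducer of lymphocytes deprived of cytokines, passed at no time. Its means ran from 5.60 to 5.76 with SDs from 0.09 to 0.23. Its changes were 0.13, 0.10, 0.16, 0.01 and 0.01 (adjusted p from 0.0837 to 0.955, F-test adjusted p = 0.208). The means lay below the 0 h median of 6.61 over all probe sets, and whether so dim a signal could hide a change was not tested. The deposited annotation puts its probe set at chr3:126571720-126604465 on the minus strand of rn5, whereas RefSeq reads the gene on the plus strand of GRCr8, and whether the probes read the gene's own strand was not tested.

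The genes whose course was most like that of a member were found by the Euclidean distance between the 5 changes from 0 h, over 12091 probe sets that carried 1 symbol and passed the F-test. For Bcl2 they were Cd4 (distance 0.22), the coreceptor of helper T cells that rat monocytes also carry, Atp2b4 (0.25), a calcium pump, and Lbh (0.33). Cd4 changed by -0.52, -1.02, -1.30, -1.55 and -0.62, close to Bcl2 at every time. For Bcl2l1 they were Mafg (0.17), Fam214b (0.17) and Asap2 (0.21), and for Bcl2a1 Rpl22l1 (0.27), Med30 (0.27) and Pld4 (0.31). For Pmaip1 they were Nav3 (0.34), Tmeff2 (0.37) and Dok4 (0.37), none of which came near its 1 h value, with changes of 0.55, 0.62 and 0.59 there.

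The counts of the 3 pathway lists are to be read against the shares of all probe sets given above, which were 17.4% to 27.3% higher and 13.9% to 19.3% lower at the 5 times. The other genes listed with the BCL2 family, 15 in all and not checked for membership by sequence, had changes between -0.25 and 0.51. Of these, 8 passed the F-test, against 55.5% of all probe sets, with 6, 3, 7, 5 and 6 higher and 1 lower at 1, 2, 3, 6 and 24 h, and medians of 0.08, 0.08, 0.13, 0.10 and 0.11. Bcl2l13, a mitophagy receptor, had the largest change, 0.51 at 1 h (adjusted p = 1.37e-06). It was followed by Bcl2l10 (0.39 at 3 h), Bik (0.39 at 6 h), a BH3-only gene, Bcl2l15 (0.34 at 24 h) and Bnip2 (0.32 at 6 h). The 0 h means of Bcl2l10, Bik and Bcl2l15 were 4.59, 5.97 and 5.90, below the median of 6.61 over all probe sets. Whether these genes are expressed in blood was not tested. The 0 h means of Bcl2l13 and Bnip2 were 7.76 and 9.91. The gene that was lower at each time was Bcl2l2, named here after its values were seen, which encodes the survival protein BCL-W and changed by -0.19 to -0.25. When the means were centred, 4, 2, 6, 5 and 3 were higher and 1, 1, 1, 3 and 2 lower.

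Downstream of the membrane, 17 of 18 listed genes of the apoptosome, caspases, inhibitors of apoptosis and channel proteins had a probe set, Birc5 being the exception, and 11 passed the F-test (55.5% of all probe sets did). Over the 5 times 0, 3, 3, 3 and 2 were higher and 8, 7, 6, 4 and 6 lower, with medians of -0.17, -0.08, -0.11, 0.07 and -0.17. Birc3, an inhibitor of apoptosis induced by NF-kB, fell by 0.52 at 1 h and then rose to 1.14 at 3 h (adjusted p = 2.03e-11) and 1.10 at 6 h. Apaf1, the scaffold of the apoptosome, had its largest change at 2 h (-0.58, adjusted p = 4.61e-06). Htra2 (-0.70 at 3 h), a protease let out of mitochondria, Aifm1 (-0.78 at 6 h), the apoptosis-inducing factor, and Naip6 (-0.62 at 3 h) were lower at all 5 times. When the means were centred, 0 were higher and 8 lower at 24 h. With quantile normalized means 1, 3, 3, 5 and 1 were higher and 7, 5, 4, 4 and 4 lower over the 5 times.

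Of 10 genes listed as upstream of the family, 9 passed the F-test, where 55.5% of all probe sets did. Whether any of them acts on the family in blood was not tested. Of the 10 genes, 3, 4, 3, 3 and 1 were higher and 5, 4, 4, 4 and 2 lower at 1, 2, 3, 6 and 24 h. Their medians were -0.19, -0.16, -0.10, 0.06 and -0.09. Cdkn1a, a cell cycle inhibitor induced by DNA damage and other stress signals, rose by 0.73, 1.09, 1.44 and 1.14 at 1, 2, 3 and 6 h and stood at 0.13 at 24 h (adjusted p = 0.225). Trib1, a pseudokinase adaptor of protein degradation in myeloid cells, rose by 0.78, 0.92, 0.83 and 0.89 and stood at -0.10 at 24 h. Huwe1 and Fbxw7, which help mark MCL1 for degradation, had their largest changes at 2 h (-0.61) and 1 h (-0.49). Bag1, whose product binds BCL2, was lower at 1, 2, 3 and 6 h, by up to a change of -0.47 at 6 h (adjusted p = 0.000488).

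**Figure D4:**
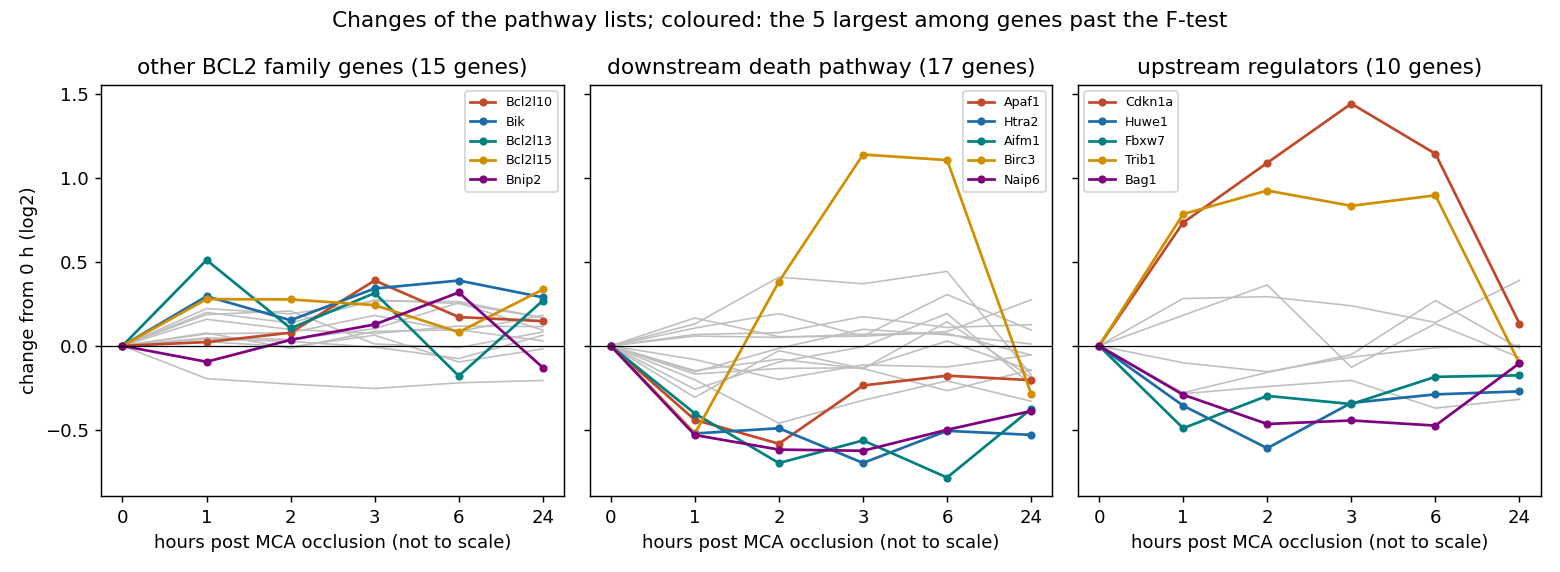
Change from 0 h (log2) of the other genes listed with the BCL2 family, the downstream death pathway and the genes listed as upstream. Each line is 1 gene, with the 5 genes of largest change among those past the F-test in colour. Cdkn1a reached 1.44 and Birc3 1.14 at 3 h, and Aifm1 was at -0.78 at 6 h.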

How the data were processed

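Per the labels and the study's methods, RNA from whole blood pellets of the rats was amplified, labelled and hybridised to RatGene arrays, with samples randomised over work-up batches. The authors deposited log2 RMA values as means and SDs per time point, with symbols and rn5 positions. The table also has 47 columns of single arrays, whose running numbers name no rat or hour. They were not assigned to samples by order and were used nowhere, nor were 19 columns of the authors' own comparisons, which hold fold changes, p-values and FDRs. The study's notes name limma, without a version.

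With single arrays not used, limma's test was rebuilt from each time point's mean, SD and number of arrays (limma 3.58.1, R 4.3.3, 41 residual and 5.71 prior degrees of freedom), with 1 spread for the 6 time points, Benjamini-Hochberg adjustment over all 27596 probe sets and a threshold of 0.05. It takes the samples of a rat as independent, and no rat or batch block was fitted. The code was checked against lmFit and eBayes on simulated data. Tables and promoter windows were handled in Python 3.11.15 (pandas 2.3.3), and figures drawn with matplotlib 3.10.9. The precision is limited by 7 or 8 arrays a group.

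The genes and lists were chosen with earlier results of these data known. Named are all 10 genes, up to 5 genes of each pathway list and up to 2 of each marker list described gene by gene, those with the largest change among genes past the F-test, and for members with a change of at least 0.5 the 3 nearest profiles. Outside this rule, Hbb and Alas2 are named as a check of the tissue, and Bcl2l2 after its values were seen. Lists were not tested as sets. 1 gene of the upstream list is not reported here, for a reason unrelated to its values, and was left out of that list's counts. Promoter windows come from RefSeq (GRCr8) and were matched by symbol.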

Additional observations from a re-analysis of the deposited data

How the results depend on the processing

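No change that passed reversed its direction under any alternative run. Leaving out the variance moderation, the lowest 25% of probe sets or the 24 h samples, or using an intensity trend, changed no call of the 9 genes. With the means centred on their median, Bak1 at 2 h (0.22) and Pmaip1 at 24 h (0.20) were no longer called, and with the median change subtracted these (0.20 each) and Mcl1 at 3 h (0.14) and in its F-test. With quantile normalized means the genes called at 24 h went from 5 to 3 (without Bak1 and Pmaip1), and Mcl1 was gained at 2 h (0.15). With the spread of the compared times alone, 737 probe sets in place of 1319 were called from 3 to 6 h and 0 of the 9 genes in place of 1 (limma, 3 at an unadjusted p under 0.05 with the shared spread, the lost call being that of Mcl1), Pmaip1 at 24 h and Bcl2a1 from 6 to 24 h were lost, and Bcl2a1 from 1 to 2 h was gained.

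The largest standard error that any correlation between samples of a rat allows, given the spread shared by the 6 time points, was chosen after seeing the data. It can be exceeded where the SDs of the compared times are above that spread. It left 3960, 5915, 6776, 6231 and 2599 probe sets called at 1, 2, 3, 6 and 24 h (10237, 11139, 12835, 11539 and 8620 as reported), and 396, 128, 117 and 2151 in the steps to 2, 3, 6 and 24 h (2422, 973, 1319 and 5211). Of the 9 genes it left 2 at 24 h, 0 in the step to 3 h, 0 in the step to 6 h and 1 in the step to 24 h. The cause of these shifts is the larger error itself. No paired analysis was possible because the names of the single-array columns match no label of a rat and columns were not assigned by order, and for the same reason no array was left out. Other probe sets of a symbol were not tried, since each gene had 1.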
